A study of Mus musculus with 4 samples.

Results

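Cd55 and App encode surface proteins whose array signal was lower in Foxo1-deficient mouse T cells of both kinds examined. They are represented by 6 of the 660 probe sets that carry a gene symbol, 3 for Cd55 and 3 for App, among 45037 analysed probe sets. A probe set is a group of short array probes read together as 1 intensity. Symbols came only from the authors' deposited fold change tables, so the probe sets had been selected on a change of 2-fold or more between genotypes, and both genes were chosen because they were lower in both cell types. The genotype differences below are therefore a description without a test.

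RNA came from T cells of the spleen and lymph nodes of animals 6 to 8 weeks old. The 4 arrays held CD4 T cells with the genotype wild-type, CD4 T cells labelled Foxo1-deficient (Foxo1KO in the titles), and CD8 T cells of each of the same genotypes. Each combination had 1 array, so no value has a replicate, and no p-value is given. How Foxo1 was deleted, in which cells, the strain, and how many mice gave each RNA are not given in the sources used here. Whether the deficient and wild-type mice differed in anything besides Foxo1 cannot be told apart from genotype. Median intensities of the arrays ranged from 69.0 to 77.6. No T cell, CD4 or CD8 marker of the lists used carried a symbol, so the labelled cell types were not checked here.

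CD55, also called decay-accelerating factor, is a lipid-anchored membrane protein that speeds the decay of the complement convertases on a cell's own surface, and it binds the adhesion receptor CD97. On T cells it is known as a brake on the complement fragments that costimulate T cell responses. The mouse genome carries a neighbouring copy, Cd55b. APP, the amyloid precursor protein, is a membrane-spanning protein found in most tissues and known for its cleavage by secretases, which in brain releases the amyloid beta peptide. FOXO1 is a forkhead transcription factor that in resting T cells sustains genes of survival and homing, such as that of the IL-7 receptor.

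The promoter windows of both genes, 250 bases before to 50 bases after the start, are shown because the genes' signals were lower together and FOXO1 binds forkhead-type motifs. They are RefSeq sequences of GRCm38.p6, read 5′ to 3′ on the gene's strand, which is the minus strand for both. The Cd55 window is chr1:130462695-130462994 and the App window is chr16:85173658-85173957. Capitals mark matches, on either strand, to the forkhead motif GTAAACA, to the insulin-response-element letters CAAAACA or to their shared core AAACA, which lies within both.
Cd55: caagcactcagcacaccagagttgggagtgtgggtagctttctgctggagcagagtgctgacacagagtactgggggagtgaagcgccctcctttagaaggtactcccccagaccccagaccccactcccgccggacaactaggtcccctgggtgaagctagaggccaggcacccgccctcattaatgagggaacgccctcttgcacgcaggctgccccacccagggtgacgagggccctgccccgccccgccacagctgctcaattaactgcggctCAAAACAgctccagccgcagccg
App: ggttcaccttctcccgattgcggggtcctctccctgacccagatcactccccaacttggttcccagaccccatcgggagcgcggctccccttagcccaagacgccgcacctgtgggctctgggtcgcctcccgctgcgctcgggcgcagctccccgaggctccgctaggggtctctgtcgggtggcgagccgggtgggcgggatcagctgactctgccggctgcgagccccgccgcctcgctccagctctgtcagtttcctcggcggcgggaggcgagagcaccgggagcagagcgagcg

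The Cd55 window held 1 CAAAACA, on the gene's own strand at bases 28 to 34 counted from 1 at the start, with AAACA inside it at bases 30 to 34. The App window held none of the 3 motifs, and neither window held GTAAACA. Among 32851 RefSeq promoter windows of the same length, 6.28% held CAAAACA, 50.5% held AAACA and 3.65% held GTAAACA, so a match or its lack describes only these letters. The window of Cd55b also held CAAAACA, at bases 38 to 44 after its start, and aligned to that of Cd55 with 67.6% identical columns. Over the 150 bases at the gene-proximal end of the windows the identity was 77.8%. Both member windows were rich in G and C (63.3% for Cd55 and 71.0% for App, against a median of 52.7% over all windows).

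The targeted gene was read first. All 4 probe sets with the symbol Foxo1 were dimmer in the deficient arrays of both cell types. Each carried a symbol only because the authors had listed it for a change of 2-fold or more. A Foxo1 probe set without such a change would be unnamed, so the count is no independent check of the labels. With no floor applied, deficient CD4 T cells kept 4.91% to 13.5% of the wild-type intensity and deficient CD8 T cells 11.6% to 26.6%. For each of the 4 probe sets the share kept was higher in CD8 than in CD4. For 1459170_at, at 10.1% in CD4 and 11.6% in CD8, this order is not measured. Its deficient intensities, 61.3 and 45.1, were both under the floor defined below.

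Cd55 signal was below the floor, the median of all intensities (74.9), in both Foxo1-deficient arrays by every probe set. Probe set 1418762_at, the brightest by its mean over the arrays, had an intensity of 1286 in wild-type CD4, 54.3 in deficient CD4, 745.7 in wild-type CD8 and 32.5 in deficient CD8 T cells. Since a value under the floor counts as unmeasured, Cd55 was at least 17.2-fold lower without Foxo1 in CD4 T cells and at least 9.96-fold lower in CD8 T cells. In bulk RNA, fewer cells with the transcript and less transcript per cell cannot be told apart.

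The other Cd55 probe sets gave the same direction. Probe set 1460242_at read 1006 in wild-type CD4, 37.6 in deficient CD4, 728.6 in wild-type CD8 and 2.26 in deficient CD8 T cells, a decrease of at least 13.4-fold and at least 9.73-fold. Its deficient CD8 value was dimmer than all but 4.1% of probe sets on that array. Probe set 1443906_at read 527.1, 31.2, 429.3 and 33.4 in the same order, at least 7.04-fold and at least 5.73-fold lower. On these 2 probe sets as on the first, both deficient arrays lay below both wild-type arrays. The 3 bounds differ because each is limited by its own wild-type intensity.

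**Figure D1:**
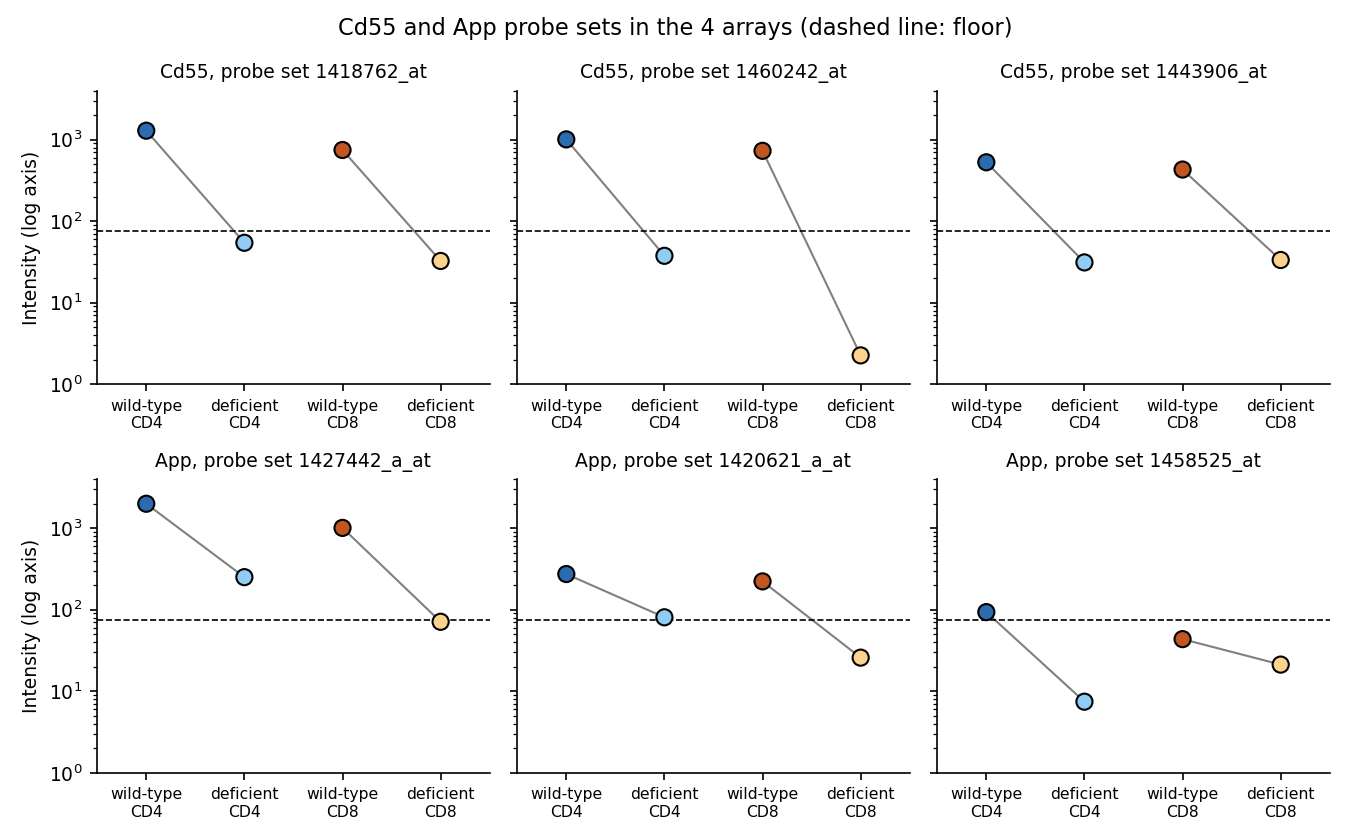
Intensity on a log axis of each Cd55 probe set (top row) and each App probe set (bottom row) in the 4 arrays, 1 point per array, with grey lines joining the genotypes of a cell type and a dashed line at the floor of 74.9. All 3 Cd55 probe sets drop below the floor in both deficient arrays, while the brightest App probe set stays at 250.3 in deficient CD4 T cells.

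App signal was lower too, but it was not lost to the floor in CD4 T cells. Its brightest probe set, 1427442_a_at, read 1989 in wild-type CD4, 250.3 in deficient CD4, 1006 in wild-type CD8 and 71.0 in deficient CD8 T cells. This was 7.95-fold lower without Foxo1 in CD4, measured on both sides, and at least 13.4-fold lower in CD8. The deficient CD4 array kept 12.6% of the wild-type intensity and was still brighter than 66.6% of its probe sets. The deficient CD8 value stood just under the floor.

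Probe set 1420621_a_at had smaller differences, 273.3 in wild-type CD4 and 80.6 in deficient CD4, 222.2 in wild-type CD8 and 25.8 in deficient CD8. By this probe set the App decrease was 3.39-fold in CD4, and in CD8 it was at least 2.97-fold. The suffix _a marks, in Affymetrix naming, a probe set that reads several transcripts of 1 gene. Probe set 1458525_at, without that suffix, was near or below the floor throughout, at 93.3, 7.44, 43.5 and 21.2 in the same order. It gave a bound of only 1.25-fold in CD4 and was not compared in CD8, where both arrays were below the floor. App thus rests on 2 probe sets in CD8 T cells.

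Of the 6 probe sets, all were compared in CD4 and 5 were at least 2-fold lower there, against 1.26% of 24070 probe sets compared. In CD8, 5 were compared and 5 were at least 2-fold lower, against 2.04% of 23803. The same 5 were lower in both cell types, against 0.462% of 22498 compared in both. With no floor, both deficient arrays lay below both wild-type arrays for all 6 probe sets, against 16.4% of the 25375 probe sets that reached the floor on any array. For 1458525_at of App only the wild-type CD4 value was above the floor, so its order in CD8 is not measured. These shares are background to the counts, since the authors' lists had been drawn from the same contrasts.

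**Figure D2:**
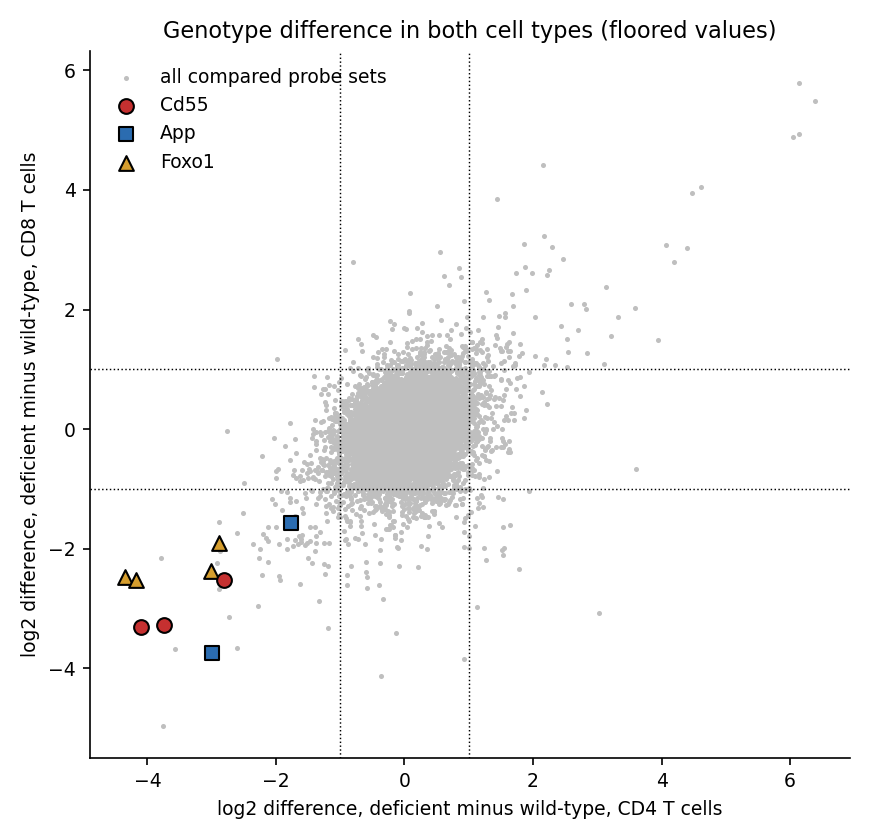
Log2 difference between Foxo1-deficient and wild-type arrays in CD4 (x axis) and CD8 T cells (y axis) for the 22498 probe sets compared in both, on floored intensities, with dotted lines at 2-fold. The 3 Cd55 and 2 App probe sets shown lie in the lower left with Foxo1, and 1458525_at of App is absent because it was below the floor in both CD8 arrays.

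Between the cell types, both genes were brighter in CD4 than in CD8 T cells of wild-type mice. By the brightest probe sets Cd55 was 1.72-fold and App 1.98-fold lower in CD8. The other Cd55 probe sets were 1.38-fold and 1.23-fold lower, and the other App probe sets 1.23-fold and at least 1.25-fold. All 6 had the lower value in CD8, as did 52.4% of 24371 probe sets compared, and 2 of 6 reached 1.5-fold, against 9.26%. The pooled SD between probe sets of the same gene for this contrast, over 78 named genes, was 0.33 log2 units. The log2 differences of the brightest probe sets, -0.79 and -0.98, were larger than this spread between probe sets, as was that of 1460242_at (-0.47). Those of 1443906_at and 1420621_a_at (-0.30 each) were not. This spread holds no variation between arrays or RNA preparations. None of these values has a spread between mice.

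In the order of intensities over the arrays, wild-type CD4 stood first and wild-type CD8 next for the 5 probe sets with both above the floor, and for 1458525_at wild-type CD4 alone was above it. The deficient arrays could be ordered for App alone. Its brightest probe set was at least 3.34-fold dimmer in deficient CD8 than in deficient CD4 T cells, and 1420621_a_at at least 1.08-fold. For Cd55 both deficient values were under the floor, so no order is given.

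The size of the genotype difference in CD4 and in CD8 was set side by side for the brightest probe sets. For App the log2 difference was -2.99 in CD4 and at most -3.75 in CD8, so CD8 minus CD4 was at most -0.76. The pooled SD between probe sets of a gene for this quantity was 0.42 over 68 named genes. The gap for App was smaller in size by the authors' deposited table, -0.37, and by the mean of its probe sets, -0.08. For Cd55 both sizes are bounds in the value table, so at the floor the gap has no value, and without a floor it was 0.04. By the authors' deposited table its log2 ratio was -4.59 in CD4 and -3.96 in CD8, a gap of 0.62. This gap is opposite in sign to that of the brightest App probe set. The deficient intensities behind the Cd55 gap, 43.6 and 40.5, were under the floor of 74.9. For 1420621_a_at of App the authors' deposited table had -1.87 in CD4 and -1.09 in CD8, the same direction as Cd55. In the value table without a floor that probe set went the other way, at -1.76 and -3.11. The spread of 0.42 came from value-table intensities at or above the floor, so it gives no scale for gaps of the authors' deposited table. By its probe sets above the floor in all arrays, Foxo1 itself kept a larger share of its signal in CD8 than in CD4, as given above. Whether the effects differ between cell types was not tested.

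The authors' deposited table gave other intensities for the same probe sets. For 1418762_at the authors' deposited table had 1048 in wild-type and 43.6 in deficient CD4, a 24.0-fold decrease, and 632.6 and 40.5 in CD8, a 15.6-fold decrease. For 1427442_a_at the authors' deposited table had an 8.42-fold decrease in CD4 and 10.9-fold in CD8. These lie within 0.56 log2 units of the value table read without a floor. The sources also differed for some bright values, by -1.04 log2 units (deposited minus value table) in CD4 for 1416983_s_at of Foxo1. Over all listed probe sets the SD of this difference was 0.79 in CD4 and 0.83 in CD8. The sources differed more for some member values below or near the floor. The authors' deposited table had 34.3 for 1460242_at in deficient CD8, where the value table had 2.26. It had 112.9 for 1420621_a_at in the same cells, where the value table had 25.8, so the App decrease in CD8 by that probe set was 2.12-fold in the authors' deposited table and at least 2.97-fold in the value table.

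The lower entries of the authors' deposited tables ended at a ratio of 0.4996 in CD4 and 0.4994 in CD8. The member nearest to this limit was 1420621_a_at in CD8, at a ratio of 0.471 in the authors' deposited table. Not listed for CD8 was 1458525_at, whose intensities there, 43.5 and 21.2 in the value table, were both below the floor. In CD4 the authors' deposited table listed this probe set at 41.0%.

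**Figure D3:**
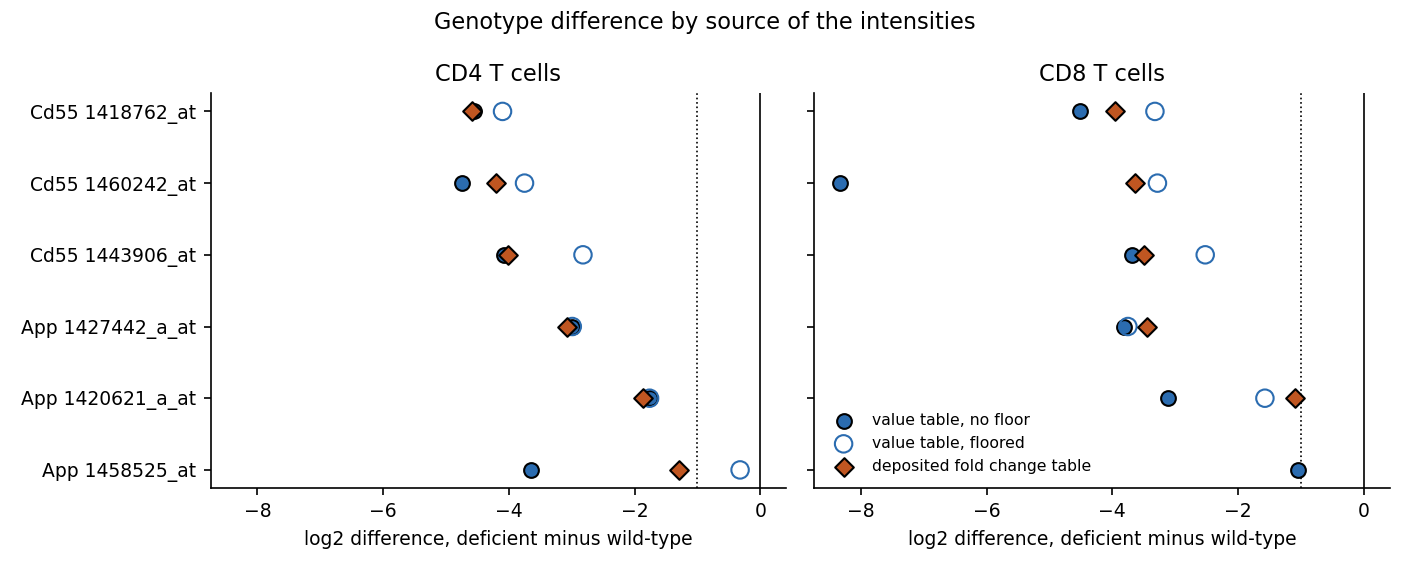
Log2 difference between deficient and wild-type for each of the 6 probe sets in CD4 (left) and CD8 T cells (right), from the value table without a floor (filled circles), with the floor (open circles) and from the authors' deposited table (diamonds), with a dotted line at 2-fold. The sources lie close together for 1427442_a_at and far apart for 1460242_at in CD8, at -8.33 without a floor and -3.64 in the authors' deposited table.

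The likeness of the Cd55 and App patterns over the 4 arrays is given as a description, since both genes were chosen for a lower signal without Foxo1 in both cell types. It was measured as the Euclidean distance between log2 intensities centred on each probe set's mean, on floored values, so that 0 is an identical pattern. From the brightest Cd55 probe set, 1460242_at of the same gene was nearest of all (distance 0.298) and 1443906_at was sixth (1.10). The nearest App probe set, 1427442_a_at, lay at 1.28 and ranked 10 among 25372 probe sets of other or unknown genes. The remaining App probe sets lay at 2.07 and 3.57. Probe sets of 1 gene were thus not always nearer than those of another, since 1420621_a_at stood at 2.12 from the brightest App probe set, farther than any Cd55 probe set (1.28, 1.29 and 1.5). The distance rests on 4 arrays, and the genotype difference on which the genes were chosen enters it, so it adds nothing independent of that choice.

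By the probe set nearest in pattern, the named genes nearest to Cd55 were Gm8369 (distance 0.457), 1110059G02Rik (1.01), Foxo1 by its probe set 1459170_at (1.02), Dapl1 (1.08) and H2-Ob (1.19), a chain of the class II modulator DO. The probe sets of 1110059G02Rik and Foxo1, like that of Cd55, were below the floor in both deficient arrays. Flooring made those values equal, which enters their distances. Gm8369 read 3510 in wild-type CD4, 295.3 in deficient CD4, 2814 in wild-type CD8 and 219.1 in deficient CD8 T cells, above the floor throughout. For App they were Gm8369 (1.07), Il7r by its probe set 1448576_at (1.18), Tent5c (1.26), which encodes a poly(A) polymerase, Cd55 (1.28) and Foxo1 (1.42). Tent5c shared with App the higher wild-type level in CD4, at 6936 against 3160 in CD8, and read 1452 and 705.5 in the deficient arrays. Il7r, the gene of the IL-7 receptor alpha chain, read 5016 and 1035 in CD4 and 4639 and 595.2 in CD8 by that probe set.

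**Figure D4:**
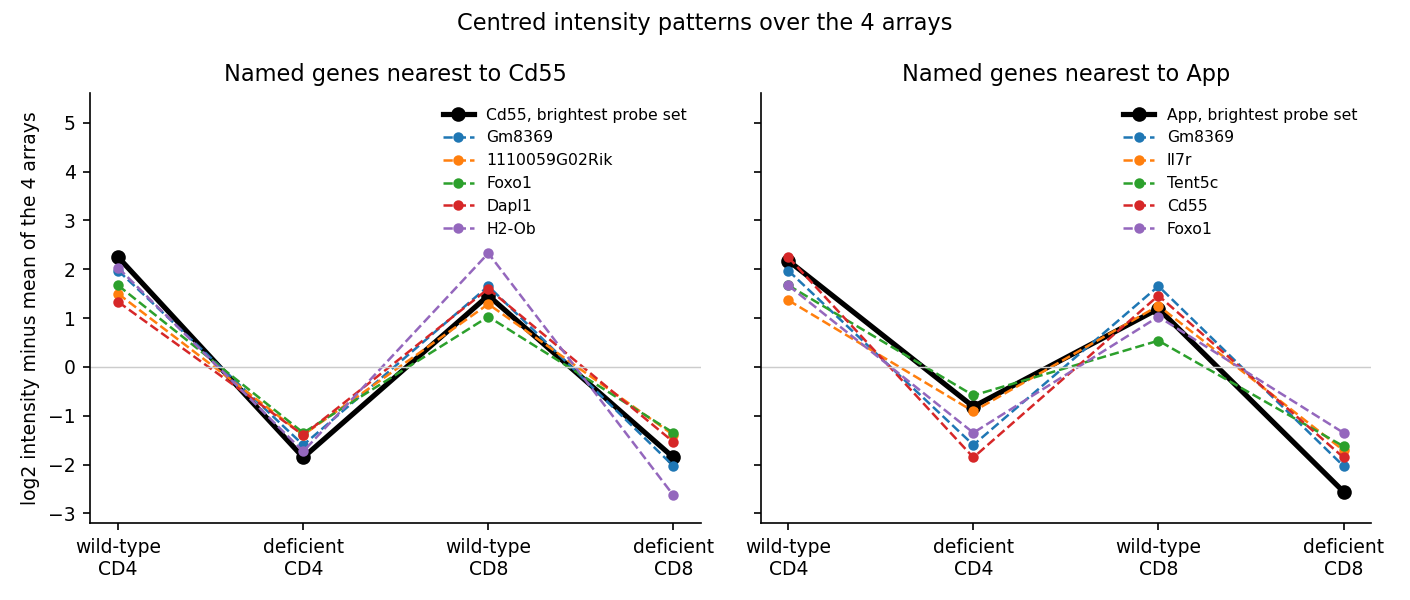
Log2 intensity minus its mean over the 4 arrays for the brightest probe set of Cd55 (left) and App (right, black lines) and for the 5 named genes with the nearest patterns (coloured dashed lines), on floored values with 1 point per array. Gm8369 is nearest to both genes, at a distance of 0.457 from Cd55 and 1.07 from App.

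The pathway partners of both proteins could not be followed. None of the 22 other genes on a list of complement regulators and CD55 partners carried a symbol, nor did any of the 31 other genes on a list of the APP family, its secretases and its binding partners. Among the 5 protein-coding genes on each side in the RefSeq order, those of Cd55 included Cxcr4, the only one with a symbol, and those of App had none. Cxcr4, the receptor of the chemokine CXCL12, was 2.11-fold higher without Foxo1 in CD4 (275.7 to 582.7) and 2.13-fold higher in CD8 (439.7 to 935.3). The neighbouring copy Cd55b had no symbol, and whether the Cd55 probe sets also read its transcripts was not tested.

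CD55 is held in the membrane by a glycosylphosphatidylinositol anchor, and 4 of the 17 other entries on a list of genes for such T cell surface proteins carried a symbol. None of these 4 was at least 2-fold lower in either cell type, against 1.26% of all probe sets compared in CD4 and 2.04% in CD8. With such shares the count gives no contrast with Cd55. Ly6a was 1.48-fold higher without Foxo1 in CD4 and 3.53-fold higher in CD8. Cd160 was at least 1.06-fold and 4.85-fold higher, and Cd24a 1.94-fold and 1.28-fold higher. Ly6c1 had a log2 difference of -0.22 in CD4 and 0.88 in CD8. Of 8 surface receptor genes reported as FOXO1 targets in T cells, 4 carried a symbol. In CD8 3 of these were at least 2-fold lower, Il7r (5.72-fold), Cd28 (6.28-fold) and Il6ra (4.96-fold), and in CD4 Il7r alone (3.81-fold), against 2.04% and 1.26% of all probe sets compared, while Cxcr4 was higher in both. The authors had selected all of these genes for a change, so the counts are not independent evidence, and Cd55 and App were at least 2-fold lower in both cell types as Il7r was.

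Genes listed as markers of other cells also differed between the genotypes. Of 10 B cell markers, 5 carried a symbol (Ighm, Igkc, Igh, Igh-VJ558 and Jchain), none of them at 0, and their summed intensity was 515.3 in wild-type and 4527 in deficient CD4, and 766.9 and 7921 in CD8. The erythroid marker Hba-a1, 1 of 4 listed, read 151.7 and 68.6 in CD4 and 120.2 and 51.2 in CD8. The myeloid marker Lyz2, 1 of 7, read 152.5 and 165.2 in CD4 and 46.6 and 137.8 in CD8. The NK cell receptor gene Klrd1, 1 of 4, read 1327 and 95.8 in CD4 and 12752 and 2875 in CD8. In wild-type CD8 it was brighter than 99.1% of probe sets, so it is not read here as a measure of NK cell content. No neutrophil, platelet or stromal marker carried a symbol. The median log2 difference of 18 hybridisation controls was -0.25 in CD4 and -0.05 in CD8. The part of these in the Cd55 and App values was not tested.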

How the data were processed

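Total RNA from 4 preparations of mouse T cells was labelled with biotin for Affymetrix arrays, according to the labels' protocols. In the authors' deposited value table each probe set has 1 linear intensity on each array. Its summary, background correction and scaling are not given in the sources used here. For each cell type, the authors also deposited a fold change table with raw intensities, per the file headers, and their ratio, deficient over wild-type. Its header names stand 1 column too far left, and the quotient of the intensities gave the ratio within a relative tolerance of 1e-06.

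The 64 control probe sets were left out, and 45037 were analysed. Symbols came from the fold change tables (660 probe sets, 507 genes), updated through RefSeq GRCm38.p6 synonyms. The floor was the median intensity over all arrays, 74.9, to which lower values were set, and log2 differences were computed without further scaling. A probe set below the floor in both arrays of a pair was not compared. The fold threshold was 2. A gene outside Cd55 and App is given by its brightest probe set, by mean intensity, unless stated. With 1 array per group no p-value was computed, and the number of arrays limits the precision. Likeness was the Euclidean distance between log2 profiles over the 4 arrays, each centred on its mean. Named by rule were Cd55, App, Foxo1, the 5 nearest named genes to each, and the members of 4 gene lists and of marker lists that carried a symbol. The members and lists were chosen with earlier results of these data known. The alternatives were other floors, no floor, scalings, thresholds, probe sets and the fold change tables. The counting and the distances were tested on simulated data. Python 3.11.15, numpy 2.4.6, pandas 2.3.3, Biopython 1.88 and matplotlib 3.10.9 were used.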

Additional observations from a re-analysis of the deposited data

Results flagged for a closer look

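The genotype difference of Il6ra, the alpha chain of the IL-6 receptor, had opposite signs in the cell types, with a log2 difference of 0.22 in CD4 and -2.31 in CD8, a gap of -2.53. So did that of the lymphocyte antigen gene Ly6c1, at -0.22 in CD4 and 0.88 in CD8, a gap of 1.10. Both CD4 values are smaller than the pooled SD between probe sets of a gene (0.39), so they show no direction in CD4. Each rests on 1 pair of arrays per cell type, and the difference was not tested.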

How the results depend on the processing

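Under each alternative that gave a value, the genotype differences of Cd55 and App were negative, and both genes were dimmer in wild-type CD8 than CD4. App in CD8 has no value by its dimmest probe set or by the one without a suffix, which is below the floor in both arrays. A value was taken as moved when it shifted by more than the pooled SD between probe sets of a gene (0.33 to 0.42 log2 units). For Cd55 the log2 genotype difference was -4.56 in CD4 and -4.52 in CD8 with the 25th percentile as the floor or with no floor, where the gap between cell types was 0.04 and deficient CD8 minus CD4 was -0.74. It was -1.45 and -0.66 with the 75th percentile, -2.82 and -2.52 by the dimmest probe set (wild-type CD8 minus CD4 -0.30), -3.55 in CD4 by the mean of the probe sets, and -4.59 and -3.96 (gap 0.62) in the authors' deposited table. For App it was -2.08 and -1.10 with the 75th percentile, -1.69 and -1.77 by the mean of the probe sets (gap between cell types -0.08, wild-type CD8 minus CD4 -0.53, deficient CD8 minus CD4 -0.62), and -0.32 in CD4 by the dimmest probe set or the one without a suffix, with -0.32 for wild-type CD8 minus CD4. A higher floor shrinks a bound by construction. The App values by the mean of the probe sets take in 1458525_at, which was set to the floor in both CD8 arrays. The distance between the Cd55 and App patterns was 0.549 with the 75th percentile (rank 47), 2.51 between the dimmest probe sets (rank 5056) and 3.57 to the App probe set without a suffix (rank 4881). Probe sets at least 2-fold lower in CD4, CD8 and both numbered 303, 485 and 104. They numbered 2284, 3043 and 473 with the 25th percentile as the floor (6 members in each), and 94, 125 and 39 with the 75th (3, 1 and 1 members). At 1.5-fold they numbered 1203, 1827 and 374 (5 members in each), and at 3-fold 78, 127 and 41 (5, 4 and 4 members). With arrays centred on medians or quantile-normalized, 5 members were lower in each. No paired analysis was possible because each combination of genotype and cell type had 1 array. An additive fit of genotype and cell type over the 4 arrays, with 1 residual degree of freedom, was not run, since the genes were chosen on that contrast. With 1 array per group, leaving out an array removes a group. With both deficient Cd55 values under the floor, their order and the gap between cell types have no value at the chosen floor.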
